A study of Mus musculus with 6 samples.

Results

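Transcripts that mark lymphocytes and plasma cells were followed one library at a time in RNA from mouse pancreatic islets. The 9 genes, of 55536 in the count table, were the B cell genes Cd79a, Cd79b and Ms4a1, the T cell genes Cd3e, Cd3g and Cd8a, and the immunoglobulin and plasma cell genes Ighm, Igkc and Jchain. They were picked by name from lists of such genes, with their raw counts in these libraries already known, so their levels and the differences between their groups are given as a description. The study asked what loss of the transcription factor KLF4 from alpha cells does to the islet transcriptome. All mice were on a C57B1/6J background, as the series spells it, and carried Gcg-iCre, a Cre recombinase expressed from the glucagon gene and so active in alpha cells. The 3 control libraries came from Klf4+/+;Gcg-iCre mice and the 3 Klf4-alphaKO libraries from Klf4fl/fl;Gcg-iCre mice. The labels record neither sex nor age, and do not say whether the libraries of a group came from separate animals, so p-values measure only the spread between these samples, which may be technical.

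Islets are clusters of hormone-producing endocrine cells, and lymphocytes are not part of their endocrine tissue but can be carried along in vessels, in surrounding exocrine tissue or in attached lymphoid tissue when islets are isolated. A B cell displays a membrane immunoglobulin that signals through the CD79A and CD79B chains, a T cell signals through the CD3 chains of its receptor, and a plasma cell secretes immunoglobulin, which the J chain links into polymers when it is IgM or IgA. Each lymphocyte assembles its receptor from 1 of many V segments, so V segment reads mark rearranged receptor transcripts and come from different segments in different clones.

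The libraries held 101277200 to 110243918 counts each, with at least 1 count for 24396 to 25494 genes. At this depth 3 counts, the limit that a count of 0 allows, correspond to 0.0272 to 0.0296 CPM (the count divided by the library total and scaled to 1000000). Klf4 itself had 3174, 2999 and 1899 counts in the control libraries and 2478, 2463 and 2282 in the Klf4-alphaKO libraries, and the groups overlapped. Xist, the RNA that silences an X chromosome in females, had 73469 to 108994 counts in the control libraries and 12 to 32 in the Klf4-alphaKO libraries, and the Y-linked genes Ddx3y, Uty, Eif2s3y and Kdm5d were at 0 in every control library. The sign of sex thus follows the genotype in 6 of 6 libraries, and for every difference below the pair cannot be told apart. In bulk RNA, fewer cells of a type and less RNA per cell cannot be told apart either. Among genes with 1 to 20 counts, 84.3% to 87.3% of the values in each library were even numbers, so low counts came mostly in pairs and intervals taken from single counts are too narrow.

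Start-site sequences are shown for Cd79a, Cd3e and Cd3g, because Cd79a stood far above the other members while the CD3 genes were close to 0. Promoters of 5 of the 9 genes (Cd79a, Cd3e, Cd3g, Cd8a and Jchain) were matched by symbol in RefSeq on GRCm38.p6, each with 250 bases before and 50 after the annotated start, written 5′ to 3′ on the gene's own strand. Those below are Cd79a at chr7:24897247-24897546 on the plus strand, Cd3e at chr9:45009562-45009861 on the minus strand and Cd3g at chr9:44980382-44980681 on the minus strand. Capitals mark matches, on either strand, to the 4 motifs searched.
Cd79a: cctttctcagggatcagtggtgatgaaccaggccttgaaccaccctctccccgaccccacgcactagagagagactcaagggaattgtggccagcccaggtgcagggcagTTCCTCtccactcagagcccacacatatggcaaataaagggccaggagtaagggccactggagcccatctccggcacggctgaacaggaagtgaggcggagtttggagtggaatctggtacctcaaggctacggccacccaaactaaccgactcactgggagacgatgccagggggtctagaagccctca
Cd3e: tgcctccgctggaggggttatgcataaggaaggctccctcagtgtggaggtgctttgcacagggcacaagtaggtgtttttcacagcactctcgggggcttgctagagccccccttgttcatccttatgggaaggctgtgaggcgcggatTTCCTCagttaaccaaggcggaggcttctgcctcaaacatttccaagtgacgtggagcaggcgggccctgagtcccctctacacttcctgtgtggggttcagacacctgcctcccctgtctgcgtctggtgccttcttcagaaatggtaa
Cd3g: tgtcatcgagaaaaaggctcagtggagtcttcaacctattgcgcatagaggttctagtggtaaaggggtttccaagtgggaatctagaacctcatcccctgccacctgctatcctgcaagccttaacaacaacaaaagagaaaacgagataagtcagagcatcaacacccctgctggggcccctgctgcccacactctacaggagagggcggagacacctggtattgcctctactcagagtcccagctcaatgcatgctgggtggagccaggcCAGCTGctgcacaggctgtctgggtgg

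The motifs were the octamer ATGCAAAT bound by OCT factors, the palindromic EBF1 motif, the purine-rich core GAGGAA found in sites of PU.1 and other ETS factors, and the E-box CAGCTG bound by E proteins. No motif overlapped another in the sequences shown. The purine-rich core was present at position -140 in Cd79a and -100 in Cd3e, counted from the annotated start, and in 28.3% of 32851 promoters of the same length. The E-box was present at position 23 in Cd3g and in 16.3% of promoters. No exact match to the octamer, held by 1.74% of promoters, or to the EBF1 motif, held by 0.904%, was found in the 5 windows. The Cd8a promoter held the core at -130 and an E-box at -2, and that of Jchain held none of the 4 motifs.

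Cd79a was the most abundant member by a wide margin. The gene (ENSMUSG00000003379) lies on chromosome 7 from 24897381 to 24902197, plus strand, GRCm38, and encodes the immunoglobulin-alpha chain of the B cell receptor. It had 1671, 1600 and 1535 counts in the control libraries and 1405, 1351 and 1382 in the Klf4-alphaKO libraries. The groups did not overlap, and all 3 Klf4-alphaKO libraries lay below the lowest control. In CPM this was 15.4 ± 0.871 (SD, n = 3) against 13.1 ± 0.361 (SD, n = 3). Per exon length its mean level over the 6 libraries was 9.77 RPKM (CPM per kilobase of exon, with the exons of all annotated transcripts of a gene merged), at percentile 76.8 of 16634 protein-coding genes with at least 10 counts in total.

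Cd79b (ENSMUSG00000040592, chromosome 11, 106311341 to 106314762, minus strand), which encodes the immunoglobulin-beta partner of CD79A in the same receptor, had 6, 26 and 24 counts in control and 2, 18 and 10 in Klf4-alphaKO libraries. The groups overlapped. Its mean of 0.0959 RPKM was at percentile 12.9 of the same genes. Per exon length, the mean of Cd79a was 102 times that of Cd79b, and the ratio ran from 60.4 to 690 in the single libraries, so the chains of this receptor dimer were far from equal at the RNA level in every library. No annotated gene overlaps Cd79a. The nearest gene on each side lies on the same strand and was well expressed. Arhgef1, a guanine nucleotide exchange factor gene that starts 715 bases beyond the end of Cd79a, had a mean of 11.7 RPKM. Rps19, a ribosomal protein gene that ends 7575 bases before Cd79a, had 15.8 RPKM. Dmrtc2, farther off on the same strand at 19730 bases, had 0 counts in every library. Arhgef1 did not follow the Cd79a pattern, with 10073, 10501 and 7556 counts in control and 10565, 8916 and 9340 in Klf4-alphaKO libraries. Rps19 had 7905, 8652 and 7320 counts against 7653, 7664 and 7459, which overlapped, with a log2 fold change of -0.08 against -0.23 for Cd79a.

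Ms4a1 (ENSMUSG00000024673, chromosome 19, 11249675 to 11266241, minus strand) encodes CD20, a surface protein of mature B cells that plasma cells lack. It had 16, 14 and 22 counts in control and 2, 0 and 2 in Klf4-alphaKO libraries, so every Klf4-alphaKO library was below every control and 1 had no read. The means were 0.167 ± 0.0456 CPM (SD, n = 3) and 0.0125 ± 0.0109 CPM (SD, n = 3), the latter under the 3-count limit. The antisense gene 4930526L06Rik overlaps it and had 2 counts, in Klf4-alphaKO replicate 3.

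The T cell genes were all near the limit of detection. Cd3e (ENSMUSG00000032093, chromosome 9, 44998740 to 45009627, minus strand), the epsilon chain of the receptor's CD3 complex, had 16, 28 and 6 counts in control and 6, 0 and 4 in Klf4-alphaKO libraries. The groups touched at 6 counts, in control replicate 3 and Klf4-alphaKO replicate 1, and were separate in CPM only because those libraries differ in total. Cd3g (ENSMUSG00000002033, chromosome 9, 44969572 to 44980431, minus strand), the gamma chain, had 8, 2 and 10 counts against 2, 2 and 0, and the groups overlapped. Cd8a (ENSMUSG00000053977, chromosome 6, 71373427 to 71379173, plus strand), a chain of the co-receptor of cytotoxic T cells, had 3, 10 and 10 counts against 7, 10 and 0, and the groups overlapped. Its partner gene Cd8b1 had 2 counts, in Klf4-alphaKO replicate 3 alone.

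**Figure D1:**
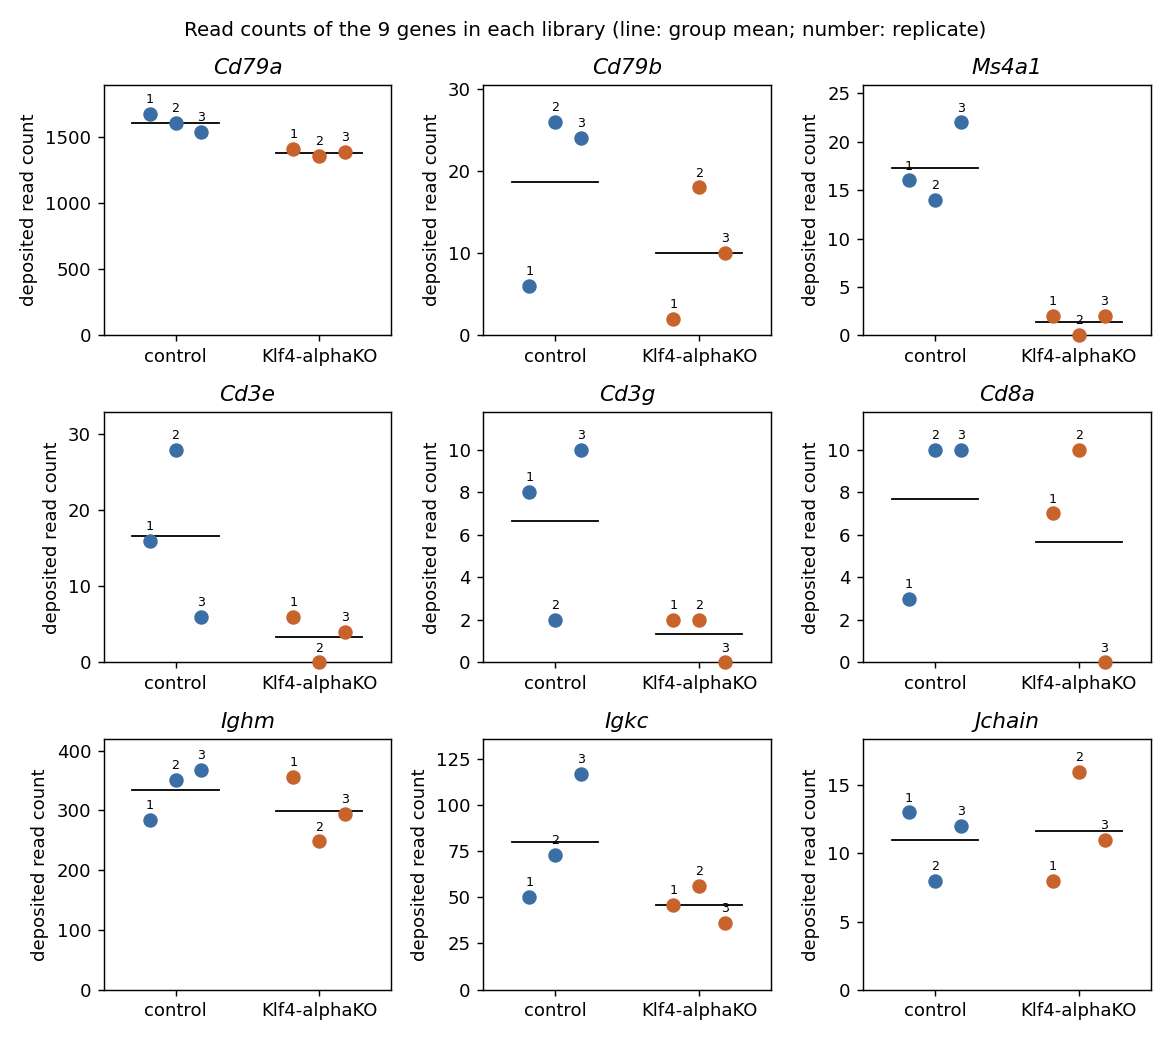
Deposited read counts of the 9 genes in each of the 6 libraries, 1 panel per gene, with control (blue) and Klf4-alphaKO (orange) points numbered by replicate and a line at each group mean. Cd79a was at 1351 counts or more in every library, Ighm at 248 or more and Igkc at 36 or more, and the other 6 genes were at 28 counts or fewer.

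Ighm and Igkc were the only other members with more than 28 counts in a library. Ighm (ENSMUSG00000076617, chromosome 12, 113418558 to 113422730, minus strand), the mu constant region gene used by IgM, had 284, 351 and 368 counts in control and 356, 248 and 294 in Klf4-alphaKO libraries. Igkc (ENSMUSG00000076609, chromosome 6, 70726435 to 70726966, plus strand), the kappa light chain constant region gene, had 50, 73 and 117 counts against 46, 56 and 36. Both overlapped between the groups, and the highest Igkc value was in control replicate 3. Per exon length the mean levels were 1.60 RPKM for Ighm and 1.13 RPKM for Igkc, and their ratio was 0.887 to 2.30 in single libraries. The long noncoding gene Gm30211, on the same strand, spans Igkc and had 18, 18 and 4 counts in control and 10, 9 and 35 in Klf4-alphaKO libraries. How reads shared by this pair were counted is not given in the sources used here.

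Jchain (ENSMUSG00000067149, chromosome 5, 88519809 to 88527891, minus strand), which encodes the J chain, had 13, 8 and 12 counts in control and 8, 16 and 11 in Klf4-alphaKO libraries. The groups overlapped, at 0.106 ± 0.0290 CPM (SD, n = 3) and 0.112 ± 0.0416 CPM (SD, n = 3). It was the sole member with a fitted log2 fold change above 0 over all libraries. Without control replicate 2 or Klf4-alphaKO replicate 2 that of Jchain was below 0, at -0.14 and -0.26.

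**Figure D2:**
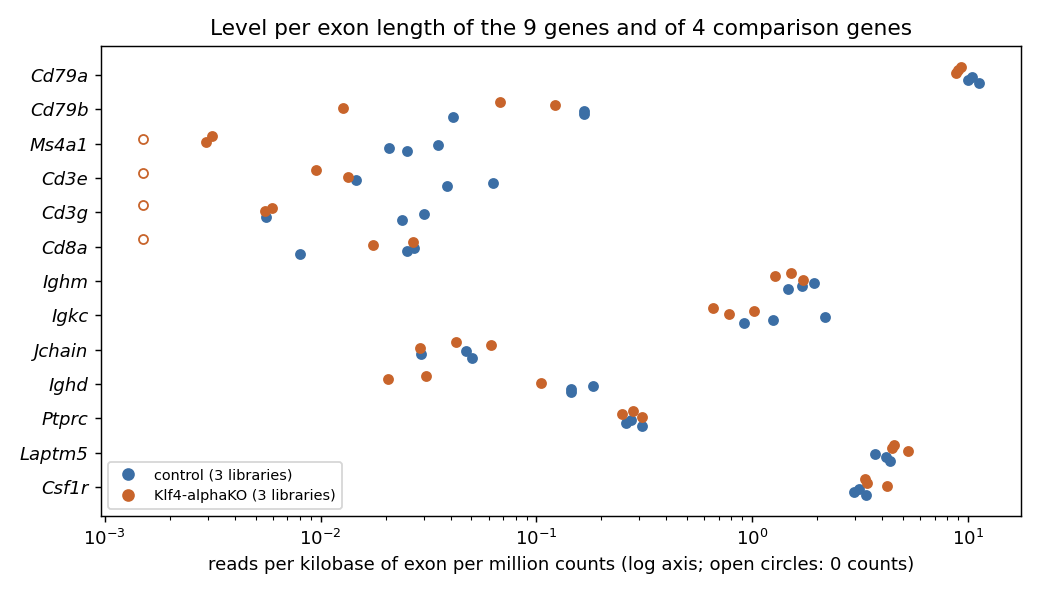
RPKM on a log axis for the 9 genes and for 4 comparison genes, 1 point per library, with open circles at the left for libraries with 0 counts. Cd79a lies near 10 in every library, Ighm and Igkc near 1, and the other members below 0.2. Ptprc, which encodes the leukocyte surface protein CD45, averaged 0.281.

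The order of the mean levels per exon length was therefore Cd79a, Ighm, Igkc, Cd79b, Jchain, Cd3e, Cd8a, Ms4a1 and Cd3g. Single-library ranges of neighbours in this order overlapped for every adjacent pair except Cd79a against Ighm and Igkc against Cd79b. Ptprc, expressed by all leukocytes, was lower per exon length than Cd79a in every library, at 0.250 to 0.310 RPKM against 8.75 to 11.2. Ighm and Igkc were also above it in every library, and the other 6 members below it. Merging exons lowers genes with long or many transcript forms, Ptprc among them.

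DESeq2, fitted over all genes with Benjamini-Hochberg adjustment, called 389 of 17797 genes with an adjusted p at the threshold of 0.05, which is 2.19%; leaving out 1 library gave 153 (without Klf4-alphaKO replicate 1) to 952 (without control replicate 3). All 9 members entered the fit and 0 were called; the low counts of the other 6 left an adjusted p for Cd79a, Ighm and Igkc only. With the filter on low means switched off all 9 had one, and 0 were called. At an unadjusted p of 0.05, DESeq2 and the edgeR quasi-likelihood test each picked 3 members, Cd79a, Ms4a1 and Cd3e, all lower in Klf4-alphaKO, against a background of 9.03% in DESeq2, and edgeR also called 0 after adjustment. In CPM, 3 of the 9 (the same genes) had groups that did not overlap and were lower in Klf4-alphaKO, against a background of 7.33% of the genes in the fit.

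The log2 fold change of Klf4-alphaKO against control was -0.23 ± 0.09 (SE) for Cd79a, with an adjusted p of 0.188 in DESeq2 and 0.381 in edgeR. It was -0.19 ± 0.19 (SE) for Ighm, with an adjusted p of 0.830 in DESeq2. For Igkc it was -0.83 ± 0.43 (SE), with an adjusted p of 0.461 in DESeq2, and -0.39 without control replicate 3. The lowest counts gave wide intervals. Ms4a1 was at -3.74 with a 95% interval from -5.94 to -1.54 and, with no filter on low means, an adjusted p of 0.0579 in DESeq2 and 0.263 in edgeR. Cd3e was at -2.34, with an interval from -4.49 to -0.19, and Cd3g at -2.37, with an interval from -5.33 to 0.59. Cd79b, Cd8a and Jchain were at -0.89, -0.45 and 0.07, and each interval reached more than 1 log2 unit to either side of its estimate. Leaving out 1 library moved Cd79b from -0.40 (without Klf4-alphaKO replicate 1) to -1.67 (without Klf4-alphaKO replicate 2), Cd3e from -1.76 (without Klf4-alphaKO replicate 2) to -3.03 (without Klf4-alphaKO replicate 1), and Ighm from -0.07 (without control replicate 3) to -0.30 (without control replicate 1). The unadjusted DESeq2 p of Cd3e was 0.0330 over all libraries and above 0.05 without control replicate 1 or 2 or Klf4-alphaKO replicate 2 or 3, reaching 0.224. The median of the members was -0.83 and 8 of 9 were below 0. Over all genes in the fit the median was -0.0018 and 12692 of 25210 were below 0. The members were chosen with their counts known, so this is a description and cannot show a shift of the class. The signs of Cd8a and Jchain turned in some fits with 1 library left out.

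**Figure D3:**
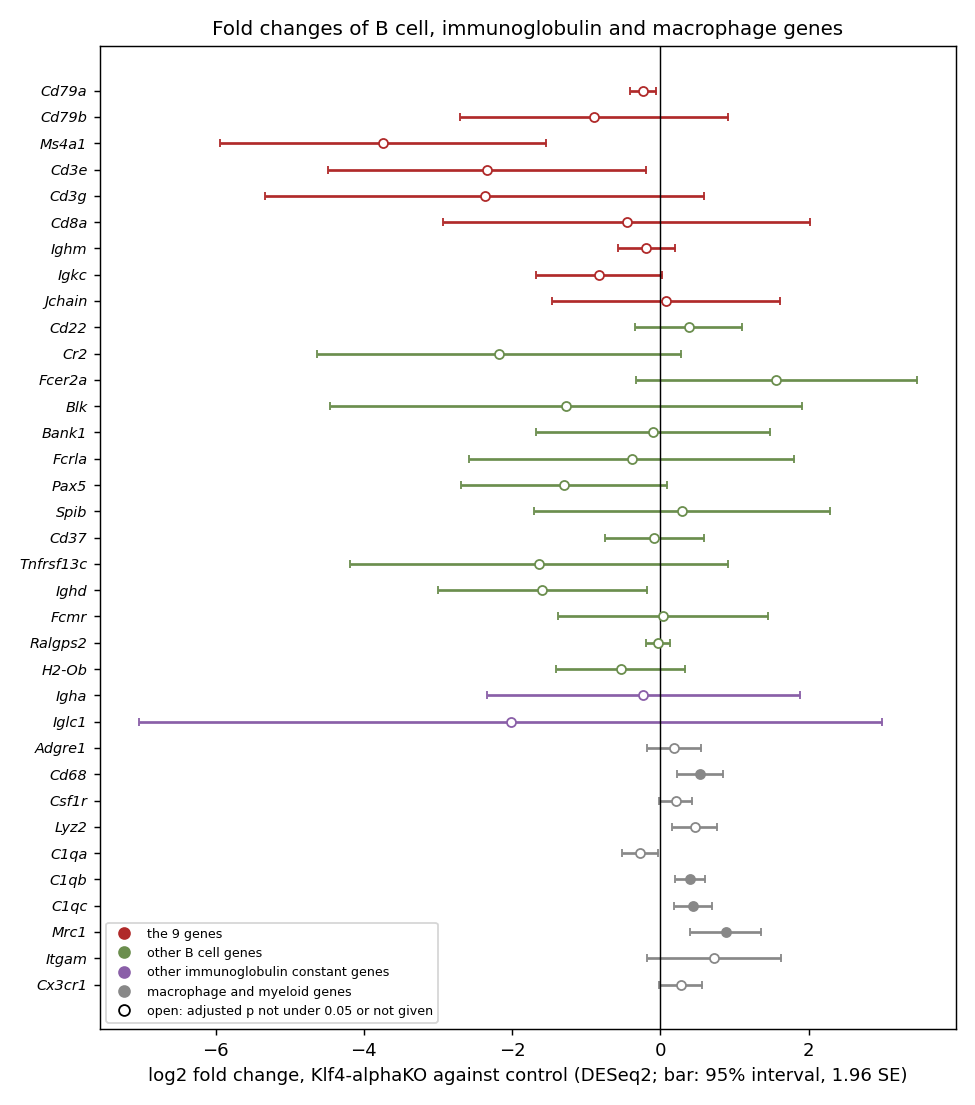
DESeq2 log2 fold changes of Klf4-alphaKO against control with 95% intervals for the 9 genes (red), other B cell genes (green), other immunoglobulin constant genes (purple) and macrophage and myeloid genes (grey), leaving out 1 B cell gene and genes at 0 in a whole group; filled points are called. Among the 9, the interval is narrow for Cd79a, from -0.41 to -0.06, and widest for Cd3g, from -5.33 to 0.59; those of Cd79a, Ms4a1 and Cd3e do not include 0.

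Summed by cell class, the 3 B cell genes had 1693, 1640 and 1581 counts in control and 1409, 1369 and 1394 in Klf4-alphaKO libraries, a mean of 15.7 CPM against 13.2 CPM, and nearly all of these were Cd79a counts. The other sums rested on far fewer reads. Cd79b and Ms4a1 together, a sum without Cd79a that was chosen after seeing the data, had 22, 40 and 46 counts in control and 4, 18 and 12 in Klf4-alphaKO libraries, or 0.215 to 0.454 CPM against 0.0363 to 0.175 CPM. The 3 T cell genes together had 27, 40 and 26 counts against 15, 12 and 4, or 0.257 to 0.366 CPM against 0.0390 to 0.136 CPM. None of these 3 sums overlapped between the groups. Ighm, Igkc and Jchain together had 347, 432 and 497 counts against 410, 320 and 341, and these groups overlapped. Markers of other cell types differed between the same libraries. Acinar genes of the exocrine pancreas summed to 5571 to 11512 CPM in control and 14740 to 20003 CPM in Klf4-alphaKO libraries. Of 10 acinar genes, 9 were higher without overlap, against a background of 7.69% of the genes in the fit. DESeq2 and edgeR each called 0 of them, with 10 at an unadjusted p of 0.05 in each. Mesenchymal genes summed to 462 to 621 CPM against 888 to 967 CPM. Of 6 mesenchymal genes, DESeq2 called 4 higher, against 2.19% of all genes called in either direction. In edgeR 2 were called, Col1a1 and Col1a2. The part of acinar and mesenchymal cells in the values of the lymphocyte genes was not tested.

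V segments were not used in the choice of genes, but they lie on the same transcripts as the constant regions. Their counts are thus not independent of those of Ighm and Igkc. Over 218 annotated immunoglobulin V segments the summed counts were 32, 43 and 63 in control and 14, 2 and 26 in Klf4-alphaKO libraries, and the groups did not overlap. The number of segments with a count was 9, 10 and 14 in control and 4, 1 and 4 in Klf4-alphaKO libraries. Only 36 of the 218 had a count in any library, and 6 had one in more than 1 library, so the libraries mostly held different segments. V segments resemble one another closely, and the assignment of reads to a single one is uncertain.

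The leading heavy chain segment was Ighv2-9 with 4 counts (tied with 1 other), Ighv1-64 with 6 and Ighv1-59 with 12 in control replicates 1 to 3. In Klf4-alphaKO libraries it was Ighv3-6 with 2 (tied) in replicate 1 and Ighv1-82 with 10 in replicate 3, and replicate 2 had no Ighv count. The leading kappa segment was Igkv4-59 with 6 (tied), Igkv6-23 with 16 and Igkv4-50 with 6 (tied) in control, and Igkv6-32 with 6, Igkv4-58 with 2 and Igkv10-96 with 8 in Klf4-alphaKO libraries. None of these named heavy chain or kappa segments is the named leader of more than 1 library; of the tied ones, only 1 is named. Ighm counts exceeded the summed Ighv counts by 11.9 to 89.0 times in the 5 libraries with any.

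T cell receptor V segments did not separate the groups. Over 136 annotated segments the summed counts were 13, 0 and 18 in control and 6, 14 and 6 in Klf4-alphaKO libraries, 31 against 26 in all. The loci differed in direction, with 24 beta V counts in control against 6 in Klf4-alphaKO and 1 alpha V count in control against 14.

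**Figure D4:**
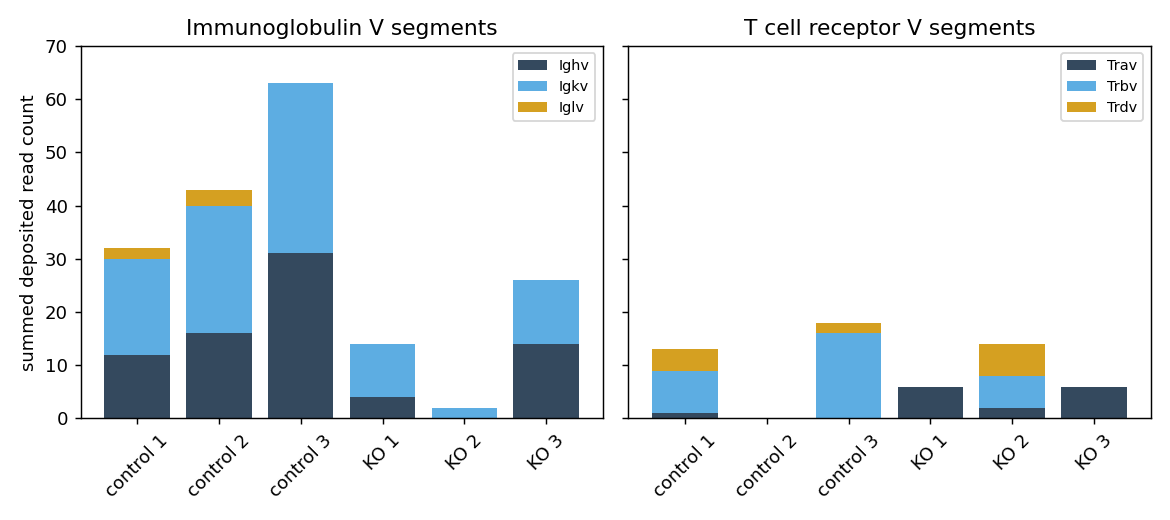
Summed deposited read counts of immunoglobulin V segments (left) and T cell receptor V segments (right) in each library, stacked by locus. The immunoglobulin bars are 32, 43 and 63 in control and 14, 2 and 26 in Klf4-alphaKO libraries, while the T cell receptor bars are 18 or lower and do not separate the groups.

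The other immunoglobulin constant genes were rarer than Ighm. Ighd, the delta constant gene that naive B cells splice from the same transcript as Ighm, had 28, 30 and 35 counts in control and 22, 4 and 6 in Klf4-alphaKO libraries, a log2 fold change of -1.59 ± 0.72 (SE) with a DESeq2 adjusted p of 0.328. Klf4-alphaKO replicate 1 held most of the Ighd counts of its group, and without it the log2 fold change was -2.62, with no adjusted p given. The Ighm count was 10.1 to 62.0 times the Ighd count. Igha, the alpha constant gene of IgA, had 20, 11 and 8 counts against 14, 0 and 20. The near-identical lambda genes Iglc2 and Iglc3 had 2, 6 and 6 and 2, 4 and 8 counts in control and 0 in every Klf4-alphaKO library, and Iglc1 had 0, 2 and 6 against 0, 2 and 0. Ighg3 had 2 counts in each of 2 control libraries, and the switched genes Ighg1, Ighg2b, Ighg2c and Ighe were at 0 in all 6 libraries. Of 10 such genes 5 entered the fit and 0 were called in DESeq2, with 3 at an unadjusted p of 0.05 against a background of 9.03%. All 5 had fold changes below 0.

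Lists of related genes were read in the same way, and they were also chosen with earlier results of these data known. Of 97 genes, 82 entered the fit and 43 had an adjusted p. DESeq2 called 1, the homing gene Madcam1, which rose, and edgeR called 0; at an unadjusted p of 0.05, DESeq2 picked 11 of the 82 (5 lower and 6 higher in Klf4-alphaKO) and edgeR 13. Fold changes were below 0 for 47 and above 0 for 35, with a median of -0.07. Groups did not overlap for 9 lower and 8 higher genes, against backgrounds of 7.33% and 7.69%.

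Among 16 other B cell genes 15 entered the fit, 0 were called in DESeq2 (2 at an unadjusted p of 0.05) and the median log2 fold change was -0.39. The most abundant were Ralgps2, a gene also expressed outside B cells, with 2299, 2263 and 2124 counts against 2422, 2026 and 2187, and Cd37, a tetraspanin gene, with 82, 56 and 74 against 72, 74 and 58. Cd22, an inhibitory receptor gene, had 36, 57 and 48 counts in control and 64, 58 and 64 in Klf4-alphaKO libraries, higher with no overlap. Pax5, the B cell identity factor gene, named after its values were seen, had 20, 18 and 20 counts against 10, 6 and 8. In all, 4 genes of the list were lower with no overlap, Pax5, Tnfrsf13c and Ighd among them, and Cd22 was the 1 higher. The backgrounds were 7.33% and 7.69% of the genes in the fit. Of the 15, 11 fold changes were below 0 and 4 above. Fcer2a, also named after its values were seen, had 0, 10 and 20 counts against 26, 14 and 52. Its groups overlapped, with a log2 fold change of 1.57 and a DESeq2 adjusted p of 0.583. Neither Pax5 nor Tnfrsf13c had an adjusted p in DESeq2, and those of Ighd and Cd22 did not pass.

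Of 24 other T cell genes 23 entered the fit, 16 were below 0 and 0 were called in DESeq2 (1 at an unadjusted p of 0.05). Skap1, an adaptor gene, led with 4625, 4927 and 4297 counts against 4825, 4809 and 4059, far above the CD3 genes, and Lck, the kinase gene of T cell receptor signalling, had 185, 226 and 124 against 164, 168 and 170. Cd3d, which lies between Cd3g and Cd3e, had 0, 4 and 8 counts in control and 0 in each Klf4-alphaKO library. Cd2, an adhesion gene of T and NK cells, had 28, 56 and 26 counts against 22, 10 and 6, and its log2 fold change was -1.55 ± 0.65 (SE) with a DESeq2 adjusted p of 0.261. Cd247, the zeta chain gene of the T cell receptor complex, had 36, 65 and 53 counts against 38, 29 and 30, separate in CPM but not in raw counts. In CPM, Cd2 and Cd247 were the 2 genes of the list lower with no overlap, against a background of 7.33%. Il7r, the interleukin 7 receptor gene, was the 1 higher with no overlap (background 7.69%), at 72, 66 and 44 against 92, 74 and 98. Trac, the T cell receptor alpha constant gene, had 47, 54 and 59 counts against 34, 60 and 41. Cd4, a T cell co-receptor gene, had 32, 42 and 62 counts against 76, 34 and 54. Both overlapped between the groups, with log2 fold changes of -0.26 for Trac and 0.23 for Cd4. Cd3d, Cd2, Cd247, Trac and Cd4 were named after their values were seen. Among natural killer and cytotoxic genes, Ccl5, a chemokine gene, had 22, 32 and 48 counts against 54, 16 and 16. The granule genes Gzma and Prf1 had 6, 0 and 26 against 10, 14 and 10, and 2, 8 and 16 against 4, 2 and 6, and Eomes was at 0 throughout. All 3 overlapped between the groups.

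Of 7 other plasma cell genes 6 entered the fit and 0 were called (1 at an unadjusted p of 0.05). Prdm1, the gene of the BLIMP1 factor, had 1068, 676 and 832 counts against 1016, 964 and 972. Derl3, an endoplasmic reticulum degradation gene that secretory cells outside the plasma cell lineage also express, had 599, 649 and 1079 against 1366, 1248 and 1228, with a log2 fold change of 0.69 ± 0.21 (SE), a DESeq2 adjusted p of 0.0508 and an edgeR adjusted p of 0.368. It passed in 7 of 15 alternatives, and without control replicate 3 its log2 fold change was 1.06 with a DESeq2 adjusted p of 9.0e-21. With any other 1 library left out it did not pass, at 0.52 to 0.71 with a DESeq2 adjusted p of 0.233 to 0.412. The acinar sums given above ran the same way, and their part in the Derl3 values was not tested. Slamf7, a surface receptor gene of plasma and NK cells, had 126, 62 and 125 counts against 196, 116 and 132. Mzb1, a more plasma and B cell restricted chaperone gene, had 5, 6 and 14 counts against 2, 12 and 8.

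Genes of the signalling chain below the antigen receptors were far more abundant than the receptors' own genes, and islet and other cells express several of them. Prkcb had 10501 to 13225 counts over the 6 libraries, Plcg1 had 7045 to 8282 and Ptpn6 had 3619 to 4147, and of 12 such genes 0 were called in DESeq2. Fold changes were above 0 for 10 of the 12, with a median log2 fold change of 0.20, and the 3 at an unadjusted p of 0.05, Syk, Lyn and Lcp2, were all higher in Klf4-alphaKO. These 3 were named after their values were seen. The recombination genes that act in precursor lymphocytes were nearly absent. Rag1 had 2 counts in each of 2 libraries, Dntt had 4 and 2 in control replicates 2 and 3, and Rag2 had none.

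The summed level of genes carried by all leukocytes did not separate the groups. The 8 pan-leukocyte genes summed to 33.4 to 34.9 CPM in control and 33.6 to 41.0 CPM in Klf4-alphaKO libraries, 0 were called in DESeq2 (1 at an unadjusted p of 0.05) and the median log2 fold change was -0.0019. Laptm5, a lysosomal gene of blood cells, had 1694, 1721 and 1428 counts against 2190, 1732 and 1768. Ptprc had 581, 522 and 511 counts against 624, 472 and 526, and Coro1a, an actin regulator gene of blood cells, had 462, 494 and 596 against 606, 432 and 560. Macrophage and myeloid genes summed to 114 to 128 CPM against 125 to 144 CPM, and DESeq2 called 4 of 10 higher, Cd68, C1qb, C1qc and Mrc1, whereas edgeR called 0 (5 at an unadjusted p of 0.05, and an adjusted p of 0.203 to 0.314 for these 4). C1qa, the most abundant of the list, had 5920, 6742 and 4843 counts against 4968, 5494 and 4108, with groups that overlapped, a log2 fold change of -0.27 and a DESeq2 adjusted p of 0.348. Madcam1, the gene of an endothelial adhesion molecule bound by homing lymphocytes, had 6, 16 and 13 counts in control and 48, 36 and 51 in Klf4-alphaKO libraries. Its log2 fold change was 1.93 ± 0.56 (SE), with an adjusted p of 0.0329 in DESeq2 and 0.232 in edgeR. Its DESeq2 adjusted p was 0.258, 0.0714 and 0.236 without Klf4-alphaKO replicates 1, 2 and 3, and without control replicate 1 or 3 it had none. The lymph node genes Ccl21a and Glycam1 were at 0 in all libraries.

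**Figure D5:**
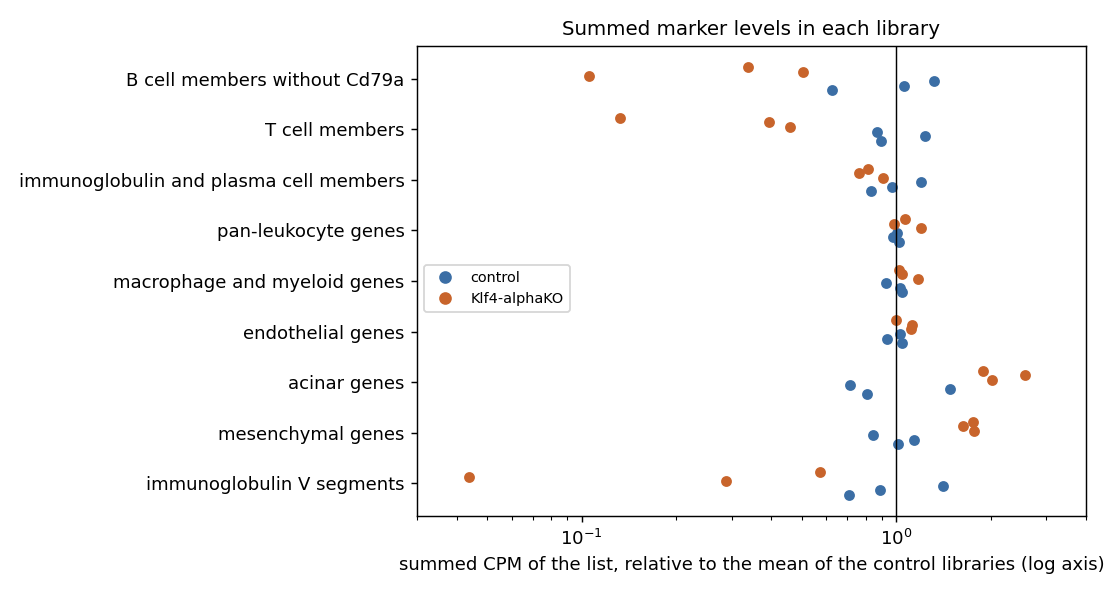
Summed CPM of each list in each library relative to the mean of the control libraries, on a log axis with a line at the control mean. The Klf4-alphaKO points of the B cell members without Cd79a, of the T cell members and of the immunoglobulin V segments lie left of the line and of every control point. Those of the pan-leukocyte genes lie on both sides of the line, those of the endothelial genes lie on it or to its right and overlap the control points, and those of the acinar and mesenchymal genes lie right of every control point.

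Control replicate 3 held the highest values of several lymphoid genes. Cxcl13, a chemokine gene that attracts B cells to follicles, had 26, 28 and 246 counts in control and 12, 24 and 0 in Klf4-alphaKO libraries, and Cr2, a complement receptor gene of B cells and follicular dendritic cells, had 0, 8 and 70 against 4, 10 and 4. Cr2 was named after its values were seen. Igkc and the immunoglobulin V segments were also highest in this library, whereas Cd79a was highest in control replicate 1 and Cd3e in control replicate 2.

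Across the 6 libraries, genes outside the group whose log2(normalized count + 1) followed that of a member most closely are given as a description. For Cd79a they were Dnajb6, Glce and Riox1, with Pearson r of 0.995, 0.995 and 0.989. For Ighm they were Gpx7, Ttc34 and 1700007K13Rik, with r of 0.992, 0.986 and 0.982. For Igkc they were Palld, Atp1b3 and Sema3a, with r of 0.997, 0.995 and 0.994. Among 17891 genes compared, those with a mean of at least 20 normalized counts, 197, 95 and 308 reached r of 0.9 for Cd79a, Ighm and Igkc, and all points share the same 6 libraries. For the class sums the closest were Glce, Dnajb6 and Gm49336 for the B cell members, Ctu1, Gm26982 and Mfap1a for the T cell members, and Carnmt1, Rars and Prkaca for the immunoglobulin and plasma cell members.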

How the data were processed

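The authors deposited 1 table of raw read counts per gene for all 6 libraries, without normalization. The submitters' processing notes list FastQC, STAR, featureCounts, DESeq2 and the build mm10; roles, versions and the strand setting are not given in the sources used here, and the file header names no tool. All 55536 identifiers and symbols equal those of GENCODE M21 (GRCm38), which gave coordinates and exon lengths. Genes overlapping on opposite strands, and near-identical copies, are uncertain.

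The test used DESeq2 1.42.0 (R 4.3.3) with a genotype term and no batch term, as the series' design text names it, on genes with at least 10 counts in total, at a Benjamini-Hochberg adjusted p of 0.05. CPM divides by the library total and RPKM also by exon length. Alternatives were edgeR 4.0.16, other scalings, filters and thresholds, a replicate block, and each library left out; counts divided by 2 and the B cell sum without Cd79a were added after seeing the data. The fits were tested on simulated data. Within groups, the chi-square statistic between libraries was 40.0 to 120.1 times its degrees of freedom, so no pair was 1 library deposited again.

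The members and lists were chosen with earlier results of these data known. Named were the members and other immunoglobulin constant genes; in each related list the called genes, the 3 of highest CPM and those at 0; the leading Ighv and Igkv segment of each library; and the 3 closest patterns. Exceptions are stated, and some genes that the rule or a count covers are not reported here.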

Additional observations from a re-analysis of the deposited data

How the results depend on the processing

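In none of the 15 alternative fits was any of the 9 members called. All 9 had an adjusted p with edgeR and with the filter on low means switched off, and 2 to 8 had one in the other fits. The stricter filter fitted 7 of them. A member without an adjusted p could not be called. Over all genes the number called was 389, against 29 with edgeR and 614 at an adjusted p of 0.1; leaving out 1 library gave 153 (without Klf4-alphaKO replicate 1) to 952 (without control replicate 3). Over the related lists it was 1, against 0 with edgeR and 2 with TMM scaling, with no filter on low counts, with the stricter filter and at an adjusted p of 0.1, and 0 to 2 with 1 library left out: 0 without control replicate 1 or any 1 of the Klf4-alphaKO replicates, and 2 (Derl3 and Lyn) without control replicate 3. Madcam1 passed in 7 of the 12 that gave it an adjusted p (0.0252 to 0.258). With the replicate block, or without control replicate 1 or 3, it had none. With counts divided by 2, 323 genes were called over all. In that DESeq2 fit Derl3 was the 1 called in the related lists, with an adjusted p of 0.0462, and Madcam1 was not called, with 0.106.

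The summed B cell level without Cd79a was 0.345 CPM in control and 0.109 CPM in Klf4-alphaKO, against 15.7 and 13.2 with it. The mean number of immunoglobulin V segments detected in control was 11 at 1 count, 6.0 at 3 counts and 1.0 at 10, and in Klf4-alphaKO 3.0, 2.0 and 0.333. For T cell receptor V segments it was 3.0 in control and 3.33 in Klf4-alphaKO at 1 count, 1.67 and 0.667 at 3, so the order of the groups turned, and 0 in both at 10.

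Among the members, the fold change turned sign for 2: Cd8a, from -1.22 to 0.13 with 1 library left out (above 0 without Klf4-alphaKO replicate 3), and Jchain, from -0.26 to 0.31 (-0.14 without control replicate 2 and -0.26 without Klf4-alphaKO replicate 2). Deviations of same-numbered libraries from their group means were nearly uncorrelated over 15811 genes (r of -0.048, -0.059 and 0.010). This does not settle whether the replicate numbers pair the libraries, since such an r can miss a pairing that acts on some genes only. With the replicate number as a block, 405 genes were called over all, Derl3 was the 1 called in the related lists, all 10 acinar genes were called higher (0 without the block; replicate 2 had the highest acinar sum in both groups), Cd68 was not called, C1qa was called lower (0.0383), and the adjusted p was 0.459 for Cd79a, 0.938 for Ighm and 0.739 for Igkc.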
